A study of Mus musculus with 10 samples.

Results

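The neuronal-type nicotinic acetylcholine receptor subunit genes are described here in the cochlea of 12-month-old mice that did or did not drink nicotinamide riboside (NR), a precursor of NAD+. The members were chosen by name, as the rows for Chrna3, Chrna4, Chrna5, Chrna6, Chrna7, Chrna9, Chrna10, Chrnb2, Chrnb3 and Chrnb4, which are 10 of the 54532 genes in each count table. RNA-seq libraries came from 5 NR mice and 5 Vehicle mice, all of the mtKeima strain, a transgenic line that carries a fluorescent reporter of mitochondrial turnover on a mixed background and wild-type alleles of cadherin 23 and Nnt. NR was given in the drinking water at 7 mg/ml (24 mM) from 2 months of age for 10 months, and Vehicle mice drank regular water. The libraries were made from dissected cochlear tissue without sorting of cells, so a level is an average over all cells, and fewer cells of a type and less RNA per cell cannot be told apart.

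Nicotinic receptors are pentameric cation channels opened by acetylcholine. Subunits encoded by Chrna3, Chrna5 and Chrnb4 form the receptors of autonomic ganglia, whereas those encoded by Chrna4, Chrna6, Chrna7, Chrnb2 and Chrnb3 are best known from the brain. The α9 and α10 subunits form the receptor of cochlear hair cells, through which olivocochlear efferent fibres from the brainstem hyperpolarize outer hair cells by way of calcium-activated potassium channels.

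Each library held 17060379 to 24419230 counts assigned to genes. Of the 18329 genes that passed the filter on low counts, 886 (4.83%) were higher and 894 (4.88%) lower in NR at an unadjusted p of 0.05, and 0 passed an adjusted p of 0.05 with edgeR, against 102 with DESeq2. The mice were labelled female, whereas the methods name males, and in all 10 libraries Ddx3y, on the Y chromosome, lay at 64.5 to 85.0 CPM (counts per 1000000 counts, by TMM-scaled library size) and Xist at 0.0882 to 0.405 CPM. Summed over 15 hair cell marker genes, Vehicle 3 and Vehicle 4 held 797 and 843 CPM and the other 8 libraries 358 to 558 CPM. Transcripts of skeletal muscle stood at 919 and 691 summed CPM in NR 3 and NR 5, at 88.0 in NR 4 and 80.7 in Vehicle 1, and at 10.2 to 29.2 in the other 6. Prph, an intermediate filament of peripheral neurons and 1 of 11 spiral ganglion markers read here, lay at 118 to 147 CPM in NR 1, NR 3, NR 5 and Vehicle 1 and at 2.03 to 26.8 CPM in the other 6. Of the tested markers of Schwann cells (6), macrophages (8), B and T lymphocytes (8) and keratinocytes (3), 0 passed an unadjusted p of 0.05, with median log2 fold changes of 0.11, 0.18, -0.16 and -0.14.

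All 10 subunit genes passed the filter, 7 with a positive and 3 with a negative log2 fold change (NR minus Vehicle), and their median was 0.55, beside -0.01 over all tested genes. The 3 ganglionic subunits and the central subunits Chrna6 and Chrnb2 were higher in NR at an unadjusted p of 0.05, which makes 5 of 10 members beside 4.83% of all tested genes in that direction. No member was lower at that threshold, beside 4.88% of all tested genes. With DESeq2 the counts were 5 higher and 1 lower, beside 3.5% and 3.08% of the 33153 genes it tested. In edgeR without the filter they were 5 higher and 1 lower, beside 4.26% and 3.21% of 33224 genes. None of the 10 passed adjustment over all tested genes with either tool, and with edgeR their adjusted p-values ran from 0.4231 to 0.9006. The members were chosen with earlier results of these data known. Some also varied together, as Chrna3 and Chrna5 did (r = 0.94 with group means subtracted). The counts of members are therefore a description and not independent calls. The ganglionic and central medians were positive and the hair-cell median was negative. The median log2 fold change was 1.13 over the 3 ganglionic, 0.42 over the 5 central and -0.72 over the 2 hair-cell subunits. The central median was 0.25 without Vehicle 3 and 0.28 without Vehicle 1.

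**Figure D1:**
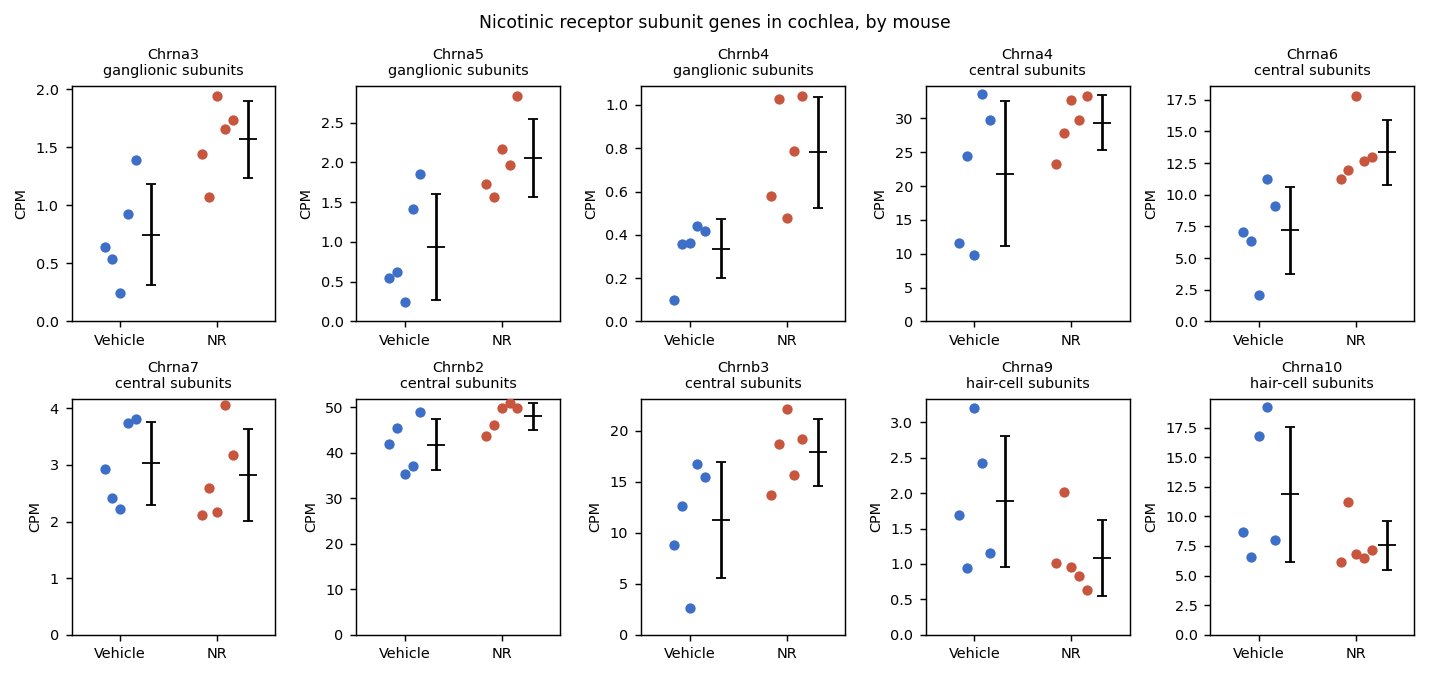
Level in CPM of each subunit gene (y axis, linear from 0) by group (x axis), with 1 point per mouse and the mean ± SD of 5 mice beside the points. Every NR mouse lay above every Vehicle mouse for Chrnb4, and for Chrna9 and Chrna10 the highest points were Vehicle mice.

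The promoters of the subunits whose values are given in most detail are shown because the subunits sit in different chromosomal settings. Chrna5, Chrna3 and Chrnb4 are neighbours on chromosome 9, Chrna9 is on chromosome 5 and Chrna10 on chromosome 7. Each line is a RefSeq promoter of build GRCm38.p6 (the coordinates of mm10), 300 bases written 5′ to 3′ in the direction of transcription and ending 50 bases after the start. Capitals mark GGGCGG, the GC box bound by Sp factors, or CAGCTG, an E-box, on either strand; these 2 motifs share no base in these windows.

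Chrna3, chr9:55026513-55026812, minus strand: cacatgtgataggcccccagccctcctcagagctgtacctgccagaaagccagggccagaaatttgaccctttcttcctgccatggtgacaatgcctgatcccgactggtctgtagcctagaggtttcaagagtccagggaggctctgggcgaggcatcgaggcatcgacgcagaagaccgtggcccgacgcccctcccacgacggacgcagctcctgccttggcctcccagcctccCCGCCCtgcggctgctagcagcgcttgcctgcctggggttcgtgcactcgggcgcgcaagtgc
Chrna5, chr9:54981238-54981537, plus strand: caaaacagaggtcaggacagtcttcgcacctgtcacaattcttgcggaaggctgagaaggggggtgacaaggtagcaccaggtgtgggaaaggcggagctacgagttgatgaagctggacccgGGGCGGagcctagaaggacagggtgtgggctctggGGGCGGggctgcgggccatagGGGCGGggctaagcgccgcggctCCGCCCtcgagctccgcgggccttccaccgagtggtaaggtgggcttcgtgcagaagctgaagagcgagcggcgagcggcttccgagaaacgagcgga
Chrnb4, chr9:55048495-55048794, minus strand: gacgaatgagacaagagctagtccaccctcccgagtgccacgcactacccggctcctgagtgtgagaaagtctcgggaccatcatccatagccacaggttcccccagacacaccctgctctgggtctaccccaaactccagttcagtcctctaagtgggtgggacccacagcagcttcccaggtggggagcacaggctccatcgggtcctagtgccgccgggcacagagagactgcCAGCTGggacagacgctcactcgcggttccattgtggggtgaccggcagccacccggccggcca
Chrna9, chr5:65966874-65967173, plus strand: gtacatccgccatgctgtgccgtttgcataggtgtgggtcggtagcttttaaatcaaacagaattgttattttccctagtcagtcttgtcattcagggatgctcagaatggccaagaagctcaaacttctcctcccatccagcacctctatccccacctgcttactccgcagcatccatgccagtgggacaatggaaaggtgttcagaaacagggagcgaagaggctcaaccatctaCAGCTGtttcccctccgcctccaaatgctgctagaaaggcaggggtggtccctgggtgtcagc
Chrna10, chr7:102116664-102116963, minus strand: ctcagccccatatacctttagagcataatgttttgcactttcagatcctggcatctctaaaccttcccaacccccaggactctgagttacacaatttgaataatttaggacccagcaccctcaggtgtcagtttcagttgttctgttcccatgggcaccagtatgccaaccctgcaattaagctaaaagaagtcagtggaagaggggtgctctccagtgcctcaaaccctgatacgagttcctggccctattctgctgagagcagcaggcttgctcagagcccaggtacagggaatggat

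RefSeq held a promoter for 8 of the 10 members, with 2 starts for Chrna5, of which the second is shown. The GC box occurred 1 time in Chrna3, 4 times in the second Chrna5 promoter, 3 times in Chrna4 and 1 time each in Chrnb2 and Chrna7, which makes 5 of the 9 member windows, and 35.7% of the 32851 mouse promoters of this length held it. The E-box occurred 1 time in Chrnb4 and 1 time in Chrna9 and in no other member window, and 16.3% of promoters held it. Neither motif was in the Chrna10 window or in the first Chrna5 window. The TATA box, TATAAA, was in none of the 9 member windows and in 13.6% of promoters. A homeodomain core, TAATTA, was likewise in none of the 9 and in 5.29% of promoters. A SOX core, ACAAAG, was in none of the 9 and in 18.7% of promoters, all searched on either strand. The bases were 64.3% G or C in Chrna3, 65% in the second Chrna5 window, 63% in Chrnb4, 52% in Chrna9 and 49.3% in Chrna10, beside a median of 52.7% over all promoters. These matches are letters in a window, and no binding was measured.

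Per kilobase of exon, the subunit genes spanned a wide range in Vehicle mice. Chrnb2, the partner subunit of most α4 and α6 receptors, was highest at 4.98 ± 0.673 RPKM (CPM per kilobase of exon; SD, n = 5). Chrna10 followed at 4.51 ± 2.18 RPKM and Chrna4, the main brain α subunit, at 4.35 ± 2.13 RPKM. Chrna6 at 2.47 ± 1.18 RPKM and Chrnb3 at 1.77 ± 0.895 RPKM, which assemble together in catecholamine neurons and the visual system, took the middle of the order. Chrna7, which forms channels of α7 alone, stood at 0.672 ± 0.163 RPKM and Chrna9 at 0.622 ± 0.307 RPKM. The ganglionic genes closed the order, with Chrna5 at 0.300 ± 0.215 RPKM, Chrna3 at 0.142 ± 0.0826 RPKM and Chrnb4 at 0.0903 ± 0.0368 RPKM. Every pair of neighbours in this order overlapped between Vehicle mice. Of the exon bases, 39% in Chrna10 and 16.3% in Chrnb2 are shared with a gene on the opposite strand, and RPKM divided by all of them. Reads from a shared stretch could not be assigned by strand, so the levels of Chrna10 and Chrnb2 and their places in the order are uncertain.

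In NR mice Chrna4 was highest at 5.84 ± 0.812 RPKM and Chrnb2 next at 5.73 ± 0.358 RPKM, while Chrna10 stood below Chrna6 at 2.88 ± 0.786 RPKM. Chrna5 at 0.657 ± 0.158 RPKM lay beside Chrna7 at 0.627 ± 0.180 RPKM. Chrnb4 was again lowest, at 0.210 ± 0.0690 RPKM. As a share of the RPKM summed over the 10 genes, the ganglionic subunits took 4.86% ± 0.749 (SD, n = 5) in NR and 2.54% ± 1.09 in Vehicle, the central subunits 81.6% ± 3.35 and 70.9% ± 12.8, and the hair-cell subunits 13.5% ± 3.75 and 26.5% ± 13.5. With the length of the longest transcript in place of all exons, the Vehicle mean was 4.79 RPKM for Chrna4 and 4.72 RPKM for Chrna10, which exchanged their places. The levels of Chrnb2, Chrna7 and Chrna9 moved to 6.53, 1.08 and 1.02 RPKM without a change of place.

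**Figure D2:**
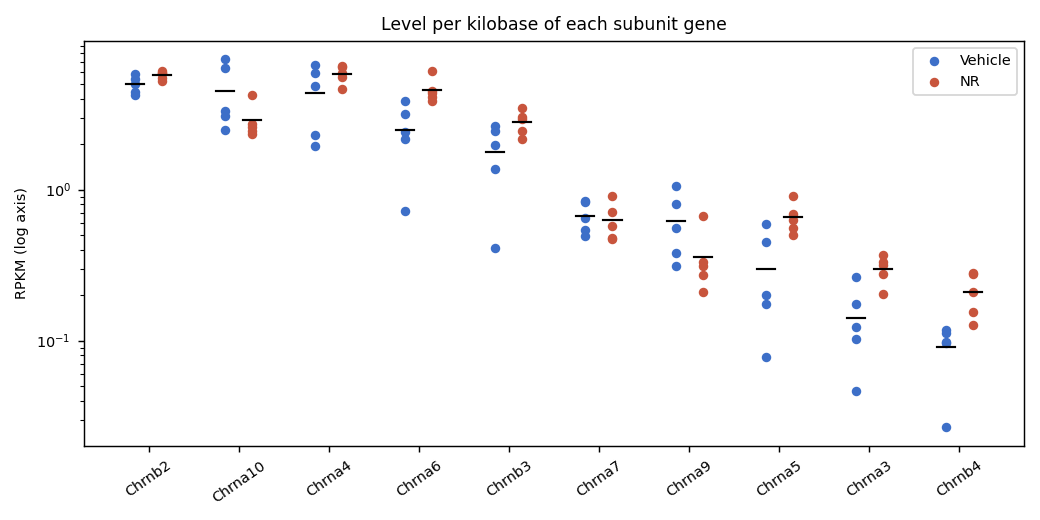
RPKM (y axis, log scale) of each subunit gene, ordered by its Vehicle mean, with 1 point per mouse and a line at each group mean. The points of neighbouring genes overlapped in Vehicle, and the ganglionic genes lay at the low end, with Chrnb4 lowest at 0.0267 to 0.280 RPKM over all 10 mice.

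The ganglionic subunits had the highest log2 fold changes among the 10 members. Chrnb4 (ENSMUSG00000035200; chr9:55028154-55048779, minus strand) encodes the β4 subunit that completes the ligand-binding site of the α3β4 receptor. It was read at 0.578, 1.03, 0.476, 0.786 and 1.04 CPM in NR 1 to NR 5 and at 0.0993, 0.359, 0.364, 0.441 and 0.418 CPM in Vehicle 1 to Vehicle 5. All 5 NR mice lay above the highest Vehicle mouse, as held for 141 of all tested genes (0.769%), and no member had every NR mouse below every Vehicle mouse, as held for 0.878% of all tested genes. The log2 fold change was 1.18 with a standard error (SE) of 0.36 (95% interval 0.39 to 1.98, p = 0.006929, adjusted p = 0.4231), and the exact two-sided permutation test gave p = 0.00794, the smallest that 5 against 5 mice allow. These values rest on few reads, 11 to 23 per NR library and 2 to 10 per Vehicle library.

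Chrna3 (ENSMUSG00000032303; chr9:55010111-55026562, minus strand), the α subunit of the ganglionic receptor, lay at 1.45, 1.07, 1.95, 1.66 and 1.74 CPM in NR 1 to NR 5. In Vehicle 1 to Vehicle 5 it lay at 0.645, 0.539, 0.243, 0.926 and 1.39 CPM. Vehicle 5 overlapped the NR range, Vehicle 3 was lowest, and 4 of 5 NR mice were above every Vehicle mouse. In the fit the log2 fold change was 1.07 (SE 0.37, 95% interval 0.25 to 1.90, p = 0.01515, adjusted p = 0.4525), with an exact permutation p of 0.01587.

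Chrna5 (ENSMUSG00000035594; chr9:54980880-55007779, plus strand) encodes an accessory subunit that joins α3β4 and α4β2 receptors without forming a binding site of its own. Its level was 1.73, 1.57, 2.16, 1.97 and 2.84 CPM in NR 1 to NR 5 and 0.546, 0.629, 0.243, 1.41 and 1.86 CPM in Vehicle 1 to Vehicle 5. As for Chrna3, Vehicle 5 and Vehicle 4 were the highest Vehicle mice and Vehicle 3 the lowest, and 3 of 5 NR mice lay above all Vehicle mice. For Chrna5 the log2 fold change was 1.13 (SE 0.44, 95% interval 0.15 to 2.10, p = 0.02667, adjusted p = 0.476), with an exact permutation p of 0.02381. It was no longer past an unadjusted 0.05 without NR 5 (log2 fold change 1.00), Vehicle 1 (1.00) or Vehicle 2 (1.03), whereas Chrna3 and Chrnb4 kept their side of 0.05 whichever mouse was left out.

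Chrnb4 differed from Chrna3 and Chrna5 in the observed order of the mice. At 11 to 23 reads per NR library and 2 to 10 per Vehicle library, much of its order can be sampling noise. Among NR mice, NR 3 had the highest Chrna3 and the lowest Chrnb4, and NR 2 had the lowest Chrna3 with Chrnb4 at 1.03 CPM, near the top. Among Vehicle mice, Vehicle 3 was lowest for Chrna3 and Chrna5 but not for Chrnb4, for which Vehicle 1 was lowest. With the mean of each group subtracted, Chrna3 correlated at r = 0.94 with Chrna5, 0.88 with Chrna6, 0.83 with Chrnb3 and 0.0045 with Chrnb4. Chrna5 correlated at 0.88 with Chrna4, 0.85 with Chrna6 and 0.30 with Chrnb4. The classes follow the known roles of the subunits, not these patterns.

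Markers of other neurons were read beside these genes. Of 10 autonomic markers 7 were tested, all 7 with a positive log2 fold change (median 0.48) and 1 of them, Ddc, at an unadjusted 0.05 (0.78, adjusted p = 0.4231). Phox2a, Hand2 and Dbh fell below the filter, at most 0.279, 0.193 and 0.173 CPM in any library. In the fit of all genes with a read their log2 fold changes were -0.65, 1.00 and -0.86. Whether the 7 tested transcripts came from autonomic neurons was not tested. Prph and Chrna3 ordered the mice alike only in part. NR 3 and NR 5 were highest for both, at 132 and 147 CPM of Prph and 1.95 and 1.74 CPM of Chrna3. Vehicle 1, at 120 CPM of Prph, had 0.645 CPM of Chrna3, whereas NR 4, at 26.8 CPM of Prph, had 1.66 CPM. Without the 4 libraries that held over 100 CPM of Prph, which leaves 2 NR and 4 Vehicle mice, the log2 fold change was 0.83 for Chrna3, 0.78 for Chrna5 and 1.19 for Chrnb4. Chrnb4 was the 1 member still higher at an unadjusted 0.05, instead of 5. In the same fit of fewer mice the count of higher genes over all tested genes was 359, instead of 886. The 11 markers of spiral ganglion neurons, the afferent neurons of the cochlea, had a median of 0.17, with Tubb3 (0.49, adjusted p = 0.4075) and Pou4f1 (0.59, adjusted p = 0.473) higher at an unadjusted 0.05. Set against the mean of these 11 markers within each mouse, the log2 difference was 0.78 for Chrna3, 0.95 for Chrna5 and 0.71 for Chrnb4, where the same difference on the log2 CPM scale alone was 1.13, 1.30 and 1.06. Against the markers the exact permutation p-values were 0.1032, 0.127 and 0.1429, so none of the 3 was past 0.05 on this scale. Prph counts as much as any other marker in this mean. The 4 libraries with the highest mean were NR 3, NR 5, NR 1 and Vehicle 1, the same that held over 100 CPM of Prph. Prph had the largest log2 fold change of the 11 markers, 1.69 (SE 1.22), with Pou4f1 next at 0.59. The marker mean was not recomputed without Prph, so how much Prph alone set the marker-relative differences was not tested. The part of autonomic and spiral ganglion neurons in the subunit differences was not tested.

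**Figure D3:**
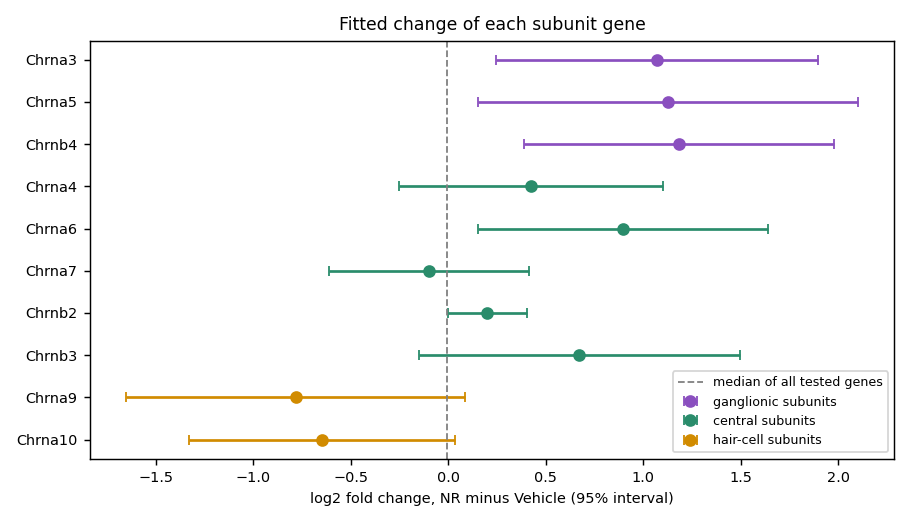
Fitted log2 fold change, NR minus Vehicle (x axis), of each subunit gene with its 95% interval, coloured by class, from 5 NR and 5 Vehicle mice; the dashed line is the median of all tested genes, -0.01. The intervals of the 3 ganglionic genes, Chrna6 and Chrnb2 lay above 0 and those of the 2 hair-cell genes reached past 0.

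The central subunits ranged from -0.10 to 0.90 on the log2 scale. Chrna6 (ENSMUSG00000031491; chr8:27403212-27413944, minus strand), the α6 subunit, lay at 11.3, 12.0, 17.8, 12.7 and 13.0 CPM in NR 1 to NR 5. In Vehicle 1 to Vehicle 5 it lay at 7.05, 6.33, 2.10, 11.3 and 9.15 CPM. Vehicle 3 was lowest, NR 3 highest, and Vehicle 4 overlapped NR 1. The log2 fold change was 0.90 (SE 0.34, 95% interval 0.15 to 1.64, p = 0.02266, adjusted p = 0.4731; exact permutation p = 0.01587), and without NR 3 it was 0.79 with an edgeR p of 0.05104.

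Chrnb3 (ENSMUSG00000031492; chr8:27368711-27399730, plus strand), the accessory β3 subunit of α6 receptors, is the adjacent gene. It lay at 13.7, 18.7, 22.2, 15.7 and 19.2 CPM in NR 1 to NR 5 and at 8.79, 12.7, 2.63, 16.7 and 15.5 CPM in Vehicle 1 to Vehicle 5. Its lowest and highest mice were those of Chrna6, namely Vehicle 3 and NR 3, and the groups overlapped. The log2 fold change of 0.67 (SE 0.37, 95% interval -0.15 to 1.5) had p = 0.1005 and an adjusted p of 0.5858, with an exact permutation p of 0.04762. Vehicle 3 and Vehicle 4 had the lowest mean level of the spiral ganglion markers. Without both, the log2 fold change was 0.55 for Chrnb3 and 0.84 for Chrna6, both past an unadjusted 0.05. Set against the spiral ganglion markers, Prph included, within each mouse, the log2 difference was 0.70 for Chrna6 (exact permutation p = 0.127) and 0.54 for Chrnb3 (exact permutation p = 0.3571). The part of Prph in these differences was not tested.

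Chrnb2 (ENSMUSG00000027950; chr3:89746195-89764632, minus strand) had the smallest standard error of the 10 genes. It lay at 43.8, 46.0, 49.7, 50.8 and 49.7 CPM in NR 1 to NR 5 and at 42.0, 45.4, 35.4, 37.1 and 48.9 CPM in Vehicle 1 to Vehicle 5. The groups overlapped, with Vehicle 3 and Vehicle 4 lowest. The log2 fold change was 0.20 (SE 0.091, 95% interval 0.00029 to 0.40, p = 0.0497, adjusted p = 0.5138; exact permutation p = 0.06349). It rested on Vehicle 3 and Vehicle 4, since without both it was 0.084 and not past an unadjusted 0.05, and it was past 0.05 in 4 of the 10 fits that leave out 1 mouse. Set against the spiral ganglion markers, Prph included, within each mouse, its log2 difference turned from 0.21 to -0.14 (exact permutation p = 0.2302). Prph had the largest log2 fold change of these markers, 1.69, and its part in the change of sign was not tested. On the opposite strand Adar, an RNA-editing enzyme, overlaps 16.3% of the exon bases of Chrnb2, and the counting did not use strand.

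Chrna4 (ENSMUSG00000027577; chr2:181018380-181043546, minus strand) ranged from 23.2 to 33.3 CPM in NR and from 9.83 to 33.6 CPM in Vehicle mice, with a median of 29.7 CPM in NR and 24.4 CPM in Vehicle. Vehicle 1 and Vehicle 3 were low, and the others overlapped the NR mice. Its log2 fold change of 0.42 (SE 0.31, 95% interval -0.25 to 1.10) had an exact permutation p of 0.2381 and an adjusted p of 0.6698. Chrna7 (ENSMUSG00000030525; chr7:63098692-63212569, minus strand) ranged from 2.12 to 4.06 CPM in NR and from 2.23 to 3.81 CPM in Vehicle mice. Its log2 fold change was -0.10 (SE 0.23, 95% interval -0.61 to 0.41, exact permutation p = 0.6508, adjusted p = 0.9006), and without the 4 libraries that held over 100 CPM of Prph it was 0.13.

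Other markers of central neurons and glia were tested because cochlear tissue can carry a stump of the auditory nerve. Of 8 central neuron genes 5 were tested, and 2 were higher in NR at an unadjusted 0.05, Slc17a6, the vesicular glutamate transporter VGLUT2 (0.52, adjusted p = 0.4625), and Rbfox3 (0.28, adjusted p = 0.4988). The 5 did not share a direction (3 positive, 2 negative, median 0.28), with Gad1 at -0.46 (adjusted p = 0.7576) and Nrgn at -0.58 (adjusted p = 0.7228). Of 8 central glia genes 0 passed 0.05, with a median of -0.11, and their summed level ran from 413 to 641 CPM in NR and from 171 to 670 CPM in Vehicle, lowest in Vehicle 1. Their part in the central subunit differences was not tested.

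The hair-cell subunits were both lower on average in NR, without passing the test. Chrna9 (ENSMUSG00000029205; chr5:65934921-65977326, plus strand), whose α9 subunit can form channels alone, lay at 1.01, 2.01, 0.952, 0.830 and 0.637 CPM in NR 1 to NR 5. In Vehicle 1 to Vehicle 5 it lay at 1.69, 0.943, 3.20, 2.42 and 1.16 CPM. Vehicle 3 and Vehicle 4 were highest, NR 2 was the next, and the remaining mice overlapped. Its log2 fold change was -0.78 (SE 0.39, 95% interval -1.65 to 0.085, p = 0.07161, adjusted p = 0.5455; exact permutation p = 0.119), from 11 to 45 reads per NR library and 21 to 79 per Vehicle library.

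Chrna10 (ENSMUSG00000066279; chr7:102111266-102116828, minus strand), whose α10 subunit needs α9 to form a channel, lay at 6.12, 11.2, 6.84, 6.46 and 7.18 CPM in NR 1 to NR 5. In Vehicle 1 to Vehicle 5 it lay at 8.69, 6.55, 16.8, 19.2 and 8.03 CPM. The same 3 libraries as for Chrna9 were highest, and the others lay between 6.12 and 8.69 CPM. Its log2 fold change was -0.65 (SE 0.31, 95% interval -1.33 to 0.032, p = 0.05966, adjusted p = 0.5287; exact permutation p = 0.1746), and with DESeq2 it was -0.65 with p = 0.03575. Art1 overlaps 39% of the exon bases of Chrna10 on the opposite strand and had a log2 fold change of 0.72 (adjusted p = 0.4231), so reads from the shared stretch could not be assigned by strand.

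Markers of hair cells moved with both genes. All 15 markers were tested, all with a negative log2 fold change (median -0.41), and 2 were lower at an unadjusted 0.05, Gfi1 (-0.50, adjusted p = 0.4728) and Loxhd1 (-0.90, adjusted p = 0.4606). The mean level of these markers was highest in Vehicle 4, Vehicle 3 and NR 2, the 3 libraries that were highest for Chrna9 and Chrna10. Without Vehicle 3 and Vehicle 4, the log2 fold change was -0.20 for Chrna9 and -0.03 for Chrna10, and the median of the hair-cell subunits moved from -0.72 to -0.11. Single mice moved the fit the other way: without NR 2, Vehicle 2 or Vehicle 5 both genes were past an unadjusted 0.05, at -1.12, -0.94 and -0.91 for Chrna9 and -0.83, -0.79 and -0.76 for Chrna10, as was Chrna10 without Vehicle 1 (-0.73). Set against the mean of the 15 markers within each mouse, Chrna10 was at -1.05 ± 0.121 in NR and -0.79 ± 0.0736 in Vehicle on the log2 scale (SD, n = 5), a difference of -0.26 where the difference on the log2 CPM scale alone was -0.55. The exact permutation p of this marker-relative difference was 0.00794, the smallest that 5 against 5 mice allow, among 20 such differences computed (10 members against each of 2 marker lists) and without adjustment for their number. Chrna9 was at -3.81 ± 0.368 in NR and -3.39 ± 0.264 in Vehicle on the same scale, a difference of -0.42 where that without the markers was -0.71, with an exact permutation p of 0.07937. The part of hair cell content in these differences was not tested further.

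**Figure D4:**
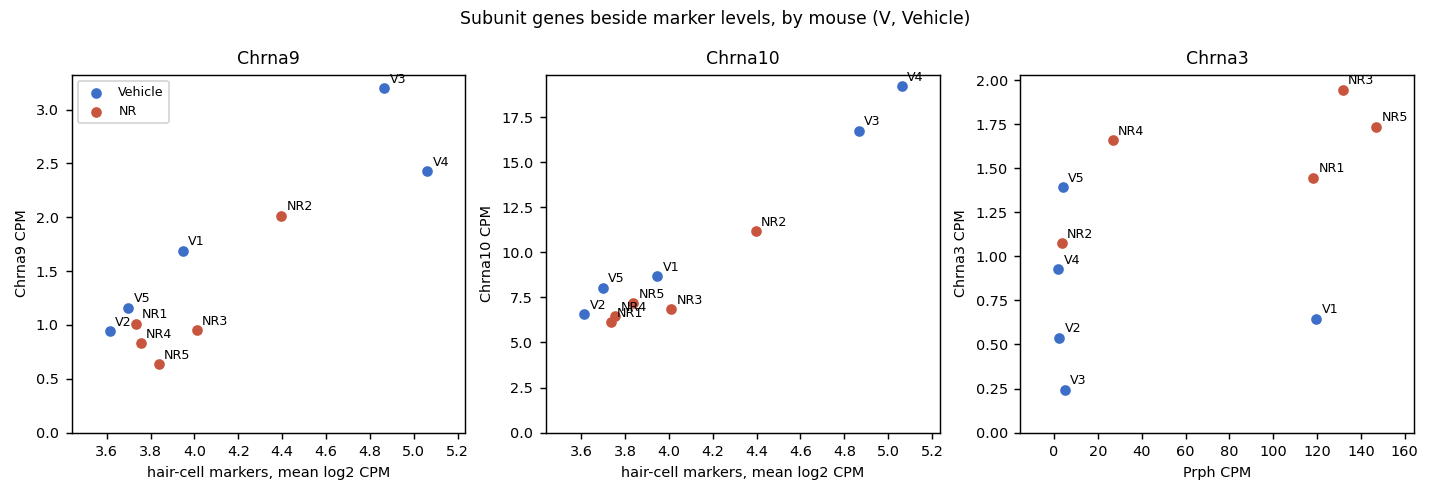
Chrna9 and Chrna10 in CPM (y axes) against the mean log2 CPM of 15 hair cell markers (x axes), and Chrna3 against Prph, both in CPM, with 1 labelled point per mouse. Vehicle 3, Vehicle 4 and NR 2 were the 3 highest mice on both axes for Chrna9 and Chrna10, and Chrna3 was read at 0.645 CPM in Vehicle 1, where Prph stood at 120 CPM.

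The proteins that work with these receptors were read from lists chosen by role. Of the 2 potassium channels that follow α9α10 in hair cells, Kcnma1 had a log2 fold change of -0.05 (adjusted p = 0.8938) and Kcnn2, the SK2 channel, of -0.14 (adjusted p = 0.7812). Of 6 genes of the cholinergic terminal 3 were tested and 0 passed 0.05 (median 0.33), with Ache, which breaks down acetylcholine, at 177 ± 16.4 CPM in NR and 154 ± 36.5 CPM in Vehicle. Chat, the enzyme that makes acetylcholine, had 1 read in Vehicle 3 and none elsewhere. The vesicular acetylcholine transporter Slc18a3 had 0 to 16 reads per library. The cell bodies of efferent neurons lie in the brainstem, outside the cochlea.

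Among 5 genes of receptor assembly and trafficking 0 passed 0.05 in either direction (median 0.04), with Vsnl1 at 0.18 (adjusted p = 0.6697). Of 9 Ly6 family modulators, which bind nicotinic receptors from outside, 7 were tested and 1 was higher at an unadjusted 0.05, Lynx1, a brake on α4β2 and α7 receptors, at 317 ± 15.9 CPM in NR and 271 ± 29.8 CPM in Vehicle (log2 fold change 0.23, adjusted p = 0.4522). Of 4 transcription factors known from the promoters of the chromosome 9 cluster 3 were tested (median -0.14). At an unadjusted 0.05, 2 were lower, Sox10 (-0.21, adjusted p = 0.5115) and Sp3 (-0.14, adjusted p = 0.5115), beside 4.88% of all tested genes. Sox10 was highest in Vehicle 3 and Vehicle 4, at 278 and 279 CPM, beside 196 to 228 CPM in the other libraries. Whether either factor bears on the cluster here was not tested. None of these lists held a gene past adjustment with edgeR.

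Of 6 other nicotinic subunit genes, those of muscle and Chrna2, 3 had enough reads to be tested and 0 passed 0.05 (median 0.03). Chrnb1, the β subunit of muscle, had a log2 fold change of 0.03 (SE 0.16, adjusted p = 0.9612). Chrnd, the δ subunit of muscle, had 28 reads in the 5 NR libraries, at most 20 in 1 library, and none in Vehicle. Chrna2 and Chrng had at most 3 reads in any library. None of 6 muscle endplate genes passed 0.05 (median -0.03), with Agrn at 0.03 (adjusted p = 0.9244), whereas 7 of 9 tested skeletal muscle genes were higher (median 3.84), following the libraries named above.

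The neighbours of the subunit clusters were read to place the clusters in their chromosomal setting. Within 500 kb of Chrna5, Chrna3 and Chrnb4 there were 29 other genes, of which 16 were tested, 0 were higher and 1 was lower at an unadjusted 0.05, Fbxo22 (-0.17, adjusted p = 0.464), and their median was 0.05. Within 500 kb of Chrnb3 and Chrna6 there were 29 others, of which 10 were tested and 1 was higher, Adrb3, the β3 adrenergic receptor of fat (1.87, adjusted p = 0.37), and the median was 0.07. All 3 genes of the first cluster had a larger log2 fold change than the highest of their tested neighbours, at 1.07 to 1.18 beside at most 0.56.

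**Figure D5:**
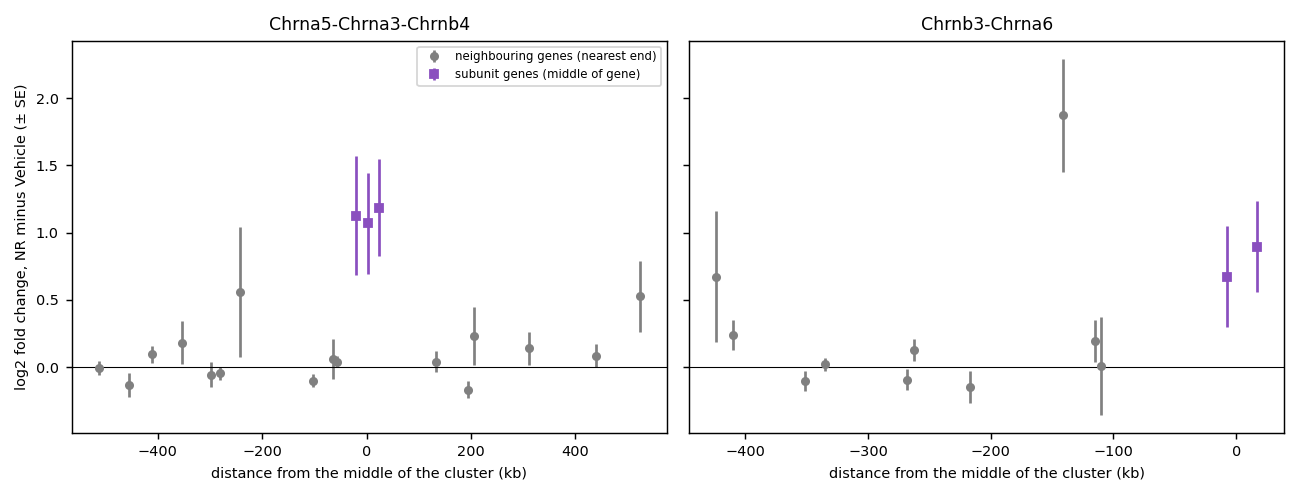
Log2 fold change, NR minus Vehicle, with its SE (y axis) against the distance in kb from the middle of each cluster (x axis), for the subunit genes at their middles and the tested neighbours at their nearest ends. The 3 genes of the chromosome 9 cluster lay at 1.07 to 1.18, and their neighbours between -0.17 and 0.56.

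The genes whose pattern over the 10 mice was most like that of a subunit class were found from the mean log2 CPM of the class after the mean of each group was subtracted. For the ganglionic subunits these were Pgm2 (r = 0.954), Drd2, the D2 dopamine receptor (0.930), Cacna1c (0.919), Fam196b (0.914) and Slc47a1 (0.913). For the hair-cell subunits they were Map4k3 (0.976), Aldh7a1 (0.976), G0s2 (0.970), Pou3f4 (0.970) and Hexim1 (0.970). Each r is a description over 10 mice that share libraries and depth, and the highest of 18329 genes are high by selection.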

How the data were processed

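Poly(A) RNA of cochlear tissue was sequenced from 5 NR and 5 Vehicle mice. The authors trimmed reads with fastp, aligned them to mm10 with STAR 2.6.1d and deposited raw counts per gene from featureCounts 1.5.0 run with default settings, which ignore strand. From these counts, library sizes were scaled by TMM, genes were filtered with filterByExpr, and NR was compared with Vehicle by the quasi-likelihood test of edgeR 4.0.16 (R 4.3.3) with Benjamini-Hochberg adjustment over all tested genes. DESeq2 1.42.0 was an alternative. An unadjusted p of 0.05 is the threshold the study used to count changed genes, while it used adjusted p-values for other lists. Genes below the filter were read from a fit of all 33224 genes with a read. The 10 members were also compared by an exact two-sided permutation test over the 252 ways to label the mice. RPKM used the gene lengths in the files, which for 10 of 10 members equal the summed exons of GENCODE vM21. log2 CPM used a prior count of 2. Promoters came from RefSeq (GRCm38.p6).

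The members and the gene lists were chosen with earlier results of these data known. Named genes were all members, list genes at p 0.05 or else the one with the highest mean CPM, coding neighbours at p 0.05, and the 5 genes closest to the ganglionic and hair-cell patterns. A few list genes outside this rule (Kcnn2, Chat, Slc18a3, Chrnd, Prph, Hand2, Dbh) were named after their values were seen, and some list genes are not reported here. Pairing by replicate number was checked: the deviations of same-numbered mice correlated at -0.22 to 0.17, so the numbers were not taken to pair mice. No pair of libraries was a duplicate, since their counts varied at least 10.9 times more than sampling noise. The tests were tested on simulated data. Intervals cover the spread between these mice only, and the common biological coefficient of variation was 0.207.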

Additional observations from a re-analysis of the deposited data

Results flagged for a closer look

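In each group of 5 mice, the highest and lowest values of each subunit gene were compared with the nearest other mouse by Dixon's ratio, and 4 of 20 gene and group combinations held a mouse past the 95% limit, where chance marks about 1 in 20. Chrnb4 in Vehicle 1 lay at 0.0993 CPM, below the 0.359 to 0.441 CPM of the other 4 Vehicle mice. Chrna6 in NR 3 lay at 17.8 CPM, above 11.3 to 13.0 CPM in the other NR mice. NR 2 stood apart for both hair-cell subunits, with Chrna9 at 2.01 CPM beside 0.637 to 1.01 CPM and Chrna10 at 11.2 CPM beside 6.12 to 7.18 CPM. NR 2 also had the highest hair cell marker level among NR mice, at 558 summed CPM beside 358 to 416 CPM. Without NR 2 the log2 fold change was -1.12 for Chrna9 and -0.83 for Chrna10, both past an unadjusted 0.05.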

How the results depend on the processing

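The count of genes higher at 0.05 (886) was 1414 without the filter, and 894 lower was 574 with library size alone. Without the 4 libraries that held over 100 CPM of Prph, an alternative chosen after seeing the data like that without Vehicle 3 and Vehicle 4, the counts were 359 and 353, 1 subunit gene was higher instead of 5, and Chrna7 reversed to 0.13. DESeq2 called 102 genes at an adjusted p of 0.05. DESeq2 and the fit without a filter each gave 1 lower subunit gene, Chrna10. Leaving out 1 mouse at a time gave 669 to 1414 higher and 484 to 1059 lower genes, 0 to 1 adjusted calls, 3 to 5 higher and 0 to 2 lower subunit genes, and a Ly6 median of -0.041 to 0.181. The 1414 came without NR 2, the lowest counts of lower genes without NR 3 (484), NR 1 (521) and Vehicle 3 (558), and 3 higher subunit genes without NR 3, NR 5 or Vehicle 1. Subunit genes became lower at 0.05 without NR 2, Vehicle 2 or Vehicle 5 (Chrna9 and Chrna10) and without Vehicle 1 (Chrna10). Without Vehicle 3 and Vehicle 4 the hair-cell median was -0.11. The causes were not tested.

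The check of the replicate numbers shared by the groups gave no clear sign of pairing. Of 5 same-numbered pairs 2 correlated above 0.1, and 1 NR mouse was closest to the Vehicle mouse of its number. With so few pairs the check could not exclude pairing. With the replicate block 879 genes were higher and 776 lower, and 4 of 10 subunit genes were higher, Chrnb2 being past 0.05 no longer (0.21, edgeR p of 0.06418). Depth limits Chrnb4 most, with 2 to 23 reads per library: under a filter of 1 CPM in 5 samples it was not tested, and 4 subunit genes were higher.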
